A study of Mus musculus with 102 samples.

Results

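The comparison described here is that of wild-type mouse embryonic stem cells (ESCs) at day 29 after transduction with Cre protein against mock-treated cells of the same day, with 3 replicates in each group. Methylation was measured by amplicon bisulfite sequencing, in which unmethylated cytosines are converted before chosen regions are amplified, and the methylation level of a CpG is the percentage of its reads that still show a cytosine. Every CpG with a level in all 6 samples was taken, which gave 392 of 405 CpGs in 63 of 65 loci, where a locus is the set of measured CpGs of a listed region. The other 13 CpGs belong to 2 loci that had no level in a single Cre or mock replicate. The whole series holds 102 samples, and its region list names 88 regions.

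Both groups were grown from a Dnmt3a/3b flox/flox line of C57BL6/J background, derived from a homozygous clone, in which loxP sites flank the catalytic exons of all Dnmt3a and Dnmt3b alleles. Cre-treated cells are labelled Dnmt3a/3b catalytic dead and mock-treated cells, which received the dialysis buffer of the Cre protein, Dnmt3a/3b intact. "Wild-type" here means that the TET genes are intact. According to the study's genotyping, deletion did not reach every allele, so a Cre sample is a mixed population. Cells were plated on feeders at transduction and then kept without feeders. The labels number the replicates but do not say whether they came from separate transductions, and p-values then measure only the spread between these samples. The amplicons do not cover the deleted exons, so the deletion itself could not be checked in these data.

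DNMT3A and DNMT3B are the de novo methyltransferases, which place methyl groups on unmethylated CpGs, and DNMT1 copies existing methylation onto the new strand after replication. TET1, TET2 and TET3 oxidise methylated cytosine and thereby start its removal. Promoters rich in CpGs are usually unmethylated regions (UMRs), distal sites bound by transcription factors are low-methylated regions (LMRs) and most of the remaining genome is fully methylated (FMRs). CTCF, an insulator protein, and REST, a repressor of neuronal genes, are factors whose binding sites form LMRs in many cell types, whereas other LMRs exist only in ESCs (ES LMRs) or in neuronal progenitors (NP LMRs).

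Sequences are shown for 6 loci, chosen because they span the range from near-complete loss to little loss of methylation. They are the plus strand of mm9, with each measured CpG in capitals.
Col1a1 (constitutive LMR, first CpGs of the locus, chr11:94734328-94734448): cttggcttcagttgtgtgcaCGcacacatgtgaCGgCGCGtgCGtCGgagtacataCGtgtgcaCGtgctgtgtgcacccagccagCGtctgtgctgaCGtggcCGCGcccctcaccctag
Prl5a1 (constitutive LMR, chr13:28387579-28387701): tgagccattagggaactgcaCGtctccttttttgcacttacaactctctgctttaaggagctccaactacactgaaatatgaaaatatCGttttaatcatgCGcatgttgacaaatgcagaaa
Atp2b2 (FMR, chr6:113705552-113705681): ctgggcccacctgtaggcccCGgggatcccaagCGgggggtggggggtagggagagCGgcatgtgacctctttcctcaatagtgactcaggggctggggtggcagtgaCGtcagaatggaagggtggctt
Gm10295 (NP LMR, chr7:78616632-78616862): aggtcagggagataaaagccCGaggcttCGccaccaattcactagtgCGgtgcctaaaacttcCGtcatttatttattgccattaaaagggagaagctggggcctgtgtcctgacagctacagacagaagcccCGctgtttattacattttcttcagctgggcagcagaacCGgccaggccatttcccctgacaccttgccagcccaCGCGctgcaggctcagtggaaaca
AU022751 (methylated CpG island, chrX:5659107-5659298): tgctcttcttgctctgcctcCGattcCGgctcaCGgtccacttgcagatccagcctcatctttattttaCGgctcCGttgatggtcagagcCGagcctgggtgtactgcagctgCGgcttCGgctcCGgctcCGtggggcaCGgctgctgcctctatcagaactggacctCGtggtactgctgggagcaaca
Hdac2 (UMR, chr10:36693856-36694038): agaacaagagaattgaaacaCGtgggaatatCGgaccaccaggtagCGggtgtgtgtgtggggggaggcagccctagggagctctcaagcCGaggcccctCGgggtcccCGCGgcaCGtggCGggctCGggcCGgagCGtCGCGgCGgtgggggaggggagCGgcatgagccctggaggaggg
The Col1a1, Prl5a1 and Gm10295 loci are intergenic and are called by their nearest protein-coding gene. At their middle CpG they lie 63146, 144187 and 120394 bases from it. For intergenic loci, "near" names the nearest gene and does not mean a short distance. The Atp2b2 locus lies in an intron and the AU022751 locus in a coding exon. The Hdac2 locus lies outside the gene, 373 bases from its annotated start at the locus's middle CpG.

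Mean methylation was lower in every Cre sample than in every mock sample. Over the 392 CpGs it was 14.5%, 14.7% and 14.8% in the Cre replicates and 27.6%, 28.6% and 28.6% in the mock replicates. The group means were 14.6% ± 0.142 and 28.3% ± 0.586 (SD, n = 3 each), a difference of -13.6 percentage points (p = 0.1 in an exact two-sided permutation of the samples, which cannot give less with 3 against 3). Relative to the mock, Cre-treated cells therefore kept 51.8% of their mean level, a quantity called the retained share below.

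Single CpGs were compared with a quasi-binomial model of methylated and unmethylated reads. At an adjusted p threshold of 0.05, 203 of 392 CpGs (51.8%) were lower after Cre and 0 were higher. Without adjustment, 221 CpGs were lower and 0 higher at a threshold of 0.05. A beta-binomial test called 278 lower and 2 higher. Its over-dispersion was fixed at 0.0055, the value given in the study, and was not estimated from these replicates. The median log2 odds ratio was -1.64 over all CpGs and -2.57 over those called. All Cre replicates lay below all mock replicates at 248 CpGs (63.3%) and above them at 3 (0.765%). The Cre mean was below the mock mean at 350 CpGs and above it at 42, and single CpGs changed by between -68.1 and 3.83 percentage points. Summed over loci, 46 of 63 (73%) were lower and 0 higher.

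How often a CpG was called depended on its level in the mock. Of 121 CpGs under 5% methylation in the mock, 4 were lower. These 4, named after their values were seen, lie near or in Hdac2, B3galt4, Id3 and Cacna1a, and their Cre means were between 1.06% and 1.95%. Of 154 CpGs between 5% and 30%, 89 were lower, and of 117 CpGs at 30% or more, 110 were lower. Of the 7 CpGs in this last class that were not called, 4 make up the Arhgef15 locus, in which the Cre replicates disagree.

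**Figure D1:**
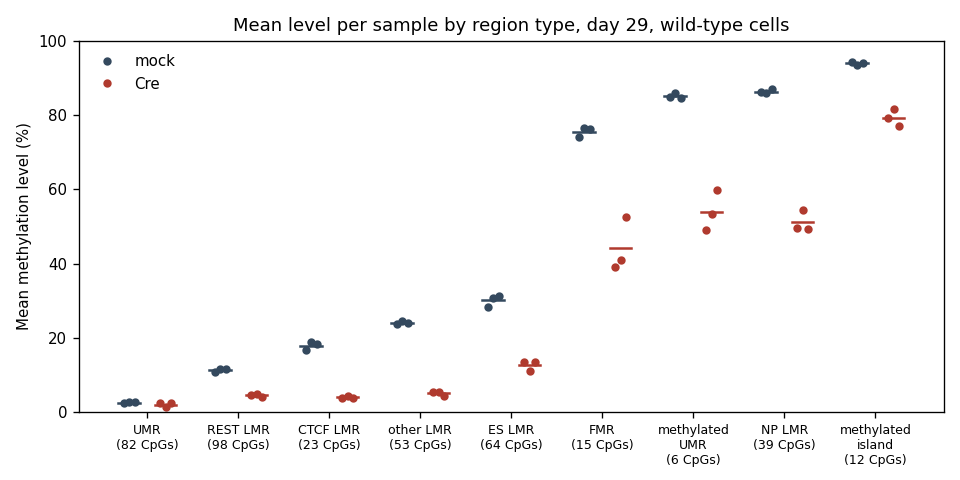
Mean methylation level (%) per sample for each region type, with mock replicates in dark blue, Cre replicates in red and group means as horizontal lines. In all 9 region types every Cre sample lies below every mock sample, from 2.08% against 2.61% in UMRs to 79.3% against 93.9% in the methylated island.

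Region types are those of the region list, and single loci can have levels in these cells that are unlike their type. In each of the 9 region types the exact permutation p was 0.1, also after adjustment over the types. UMRs, which include the CpG-rich promoters, were nearly unmethylated in both groups. Their 82 CpGs had means of 2.41%, 1.46% and 2.38% in the Cre and 2.44%, 2.75% and 2.64% in the mock replicates. The Cre replicates lay below the mock replicates, but replicates 1 of both groups differed by less than 0.1 points. The difference of -0.525 points was -0.214 without Cre replicate 2, and with equal weight per locus the groups overlapped (-0.555 points, exact permutation p = 0.3). Of the UMR CpGs, 4.88% were called lower, and of 9 UMR loci 1 was. It lies near Id3, which encodes an inhibitor of DNA binding by helix-loop-helix factors, and had 2.58%, 1.77% and 1.96% in the Cre and 3.16%, 3.04% and 3.16% in the mock replicates (adjusted p = 0.012). The locus near Hdac2, a histone deacetylase gene, changed by 0.0161 points between group means of 2.27% ± 0.533 and 2.25% ± 0.161 (SD, n = 3 each). The locus in an intron of Zfp82 changed by -0.0193 points. The largest UMR difference, -1.48 points in an intron of 1810063B07Rik, did not pass the test (adjusted p = 0.0671).

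Constitutive LMRs lost most of their methylation in relative terms. At the 23 CpGs of CTCF LMRs the Cre replicates had 3.88%, 4.30% and 3.81% and the mock replicates 16.7%, 18.8% and 18.3%, so the retained share was 22.3%. At the 53 CpGs of the other constitutive LMRs the values were 5.49%, 5.56% and 4.42% against 23.8%, 24.5% and 24.0%, with a retained share of 21.4%. REST LMRs, with 98 CpGs, had 4.76%, 5.03% and 4.24% against 10.8%, 11.6% and 11.8%, and retained 41.1%. Of their CpGs, 73.9% (CTCF), 77.4% (other) and 37.8% (REST) were called lower.

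All 5 CTCF loci were lower. The widest change, -26.3 points, was at an intergenic locus whose nearest gene is 2700060E02Rik, which had 7.21%, 5.99% and 4.47% after Cre and 30.4%, 34.0% and 32.1% in the mock (log2 odds ratio -2.92 ± 0.19 SE, adjusted p = 7.19e-05). The locus near Sf3b5, a splicing factor gene, retained 16.1%. The smallest CTCF change, -4.79 points near Lonrf2, still passed the test (adjusted p = 0.0107).

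Of 18 REST loci, 12 were lower. The locus near 4930588N13Rik fell from 21.5% ± 1.02 to 2.58% ± 0.837 (SD, n = 3 each), with 2.88%, 3.21% and 1.63% in the Cre replicates. A locus in an intron of Tssc1 had 5.66%, 11.0% and 6.29% after Cre and 24.9%, 25.2% and 25.4% in the mock. At the loci near Otor and Zfp947 the groups overlapped, with differences of -0.183 and -0.813 points. Both had mock means under 6%.

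Among the 12 other constitutive LMR loci, 10 were lower. The locus near Prl5a1, a member of the prolactin family, fell by the most points against the mock. It had 79.7%, 82.2% and 81.0% in the mock and 41.4%, 35.9% and 37.7% after Cre. Though listed as an LMR, it had a mean of 68.6% at day 0. Its difference was -42.6 points (log2 odds ratio -2.76 ± 0.18 SE, adjusted p = 7.19e-05). An intergenic locus near 4931440P22Rik had 4.95%, 8.61% and 3.27% after Cre and 38.0%, 46.7% and 41.0% in the mock. The locus near Col1a1, which encodes a collagen chain, had the lowest retained share of all 63 loci, 9.30%. Its Cre replicates had 3.07%, 2.50% and 2.57% and its mock replicates 31.3%, 27.7% and 28.5%. A single CpG close to 4931440P22Rik was not called, with 2.74%, 16.4% and 3.24% after Cre and 15.3%, 11.6% and 14.9% in the mock. Its Cre replicate 2 lies above all mock values, and without it the adjusted p was 0.00715. The other uncalled locus of this type, in an intron of Trak1, changed by -0.313 points from a mock mean of 2.82%, with overlapping groups.

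LMRs specific to a cell type were lower after Cre at every locus. ES LMRs, 64 CpGs in 6 loci, had 13.6%, 11.0% and 13.4% after Cre and 28.3%, 30.9% and 31.2% in the mock, and all 6 loci were lower. NP LMRs, which are methylated in ESCs, had 49.7%, 54.5% and 49.4% over 39 CpGs after Cre and 86.1%, 85.9% and 86.9% in the mock. All 39 CpGs and all 7 loci were lower, and the retained share was 59.3% against 42.1% in ES LMRs. The ES value rests largely on the Zbtb20 locus, whose mock mean of 83.9% lies within the range of the NP loci. Without this locus, a choice made after the data were seen, the remaining 51 ES CpGs had 5.14% ± 1.21 after Cre and 16.4% ± 1.34 in the mock (SD, n = 3 each) and retained 31.3%. The median retained share of the 6 ES loci was 23.2%.

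The ES locus with the highest mock level lies in a coding exon of Zbtb20, a zinc finger transcription factor gene, and had 42.3%, 33.1% and 51.1% after Cre and 80.8%, 85.7% and 85.3% in the mock. All 13 of its CpGs were lower, and its mean at day 0 was 82.3%. The ES locus in a coding exon of Calhm2 fell from 24.6% ± 1.52 to 5.07% ± 1.77 (SD, n = 3 each). The smallest ES change, -6.55 points, was at the Slx1b locus, whose Cre replicates had 10.4%, 7.99% and 4.21% and whose mock replicates had 13.4%, 16.4% and 12.4%. Its adjusted p was 0.0316 with all samples and between 0.0602 and 0.0781 without Cre replicate 2, mock replicate 1 or mock replicate 2.

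The NP locus near Gm10295 had the largest fall among NP LMRs, from a mock mean of 87.1% ± 0.626 to 38.4% ± 8.99 (SD, n = 3 each), with Cre replicates at 32.0%, 48.6% and 34.4%. The locus near Cadm1, a cell adhesion gene, retained 45.1%. The smallest fall was in an intron of Fgfr2, a fibroblast growth factor receptor gene, where the Cre replicates had 68.1%, 72.0% and 73.7% and the mock replicates 91.1%, 88.8% and 91.8%. An intronic locus of Fbxl17 lay between, with 47.3%, 49.4% and 47.5% against 78.4%, 80.9% and 77.5%.

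**Figure D2:**
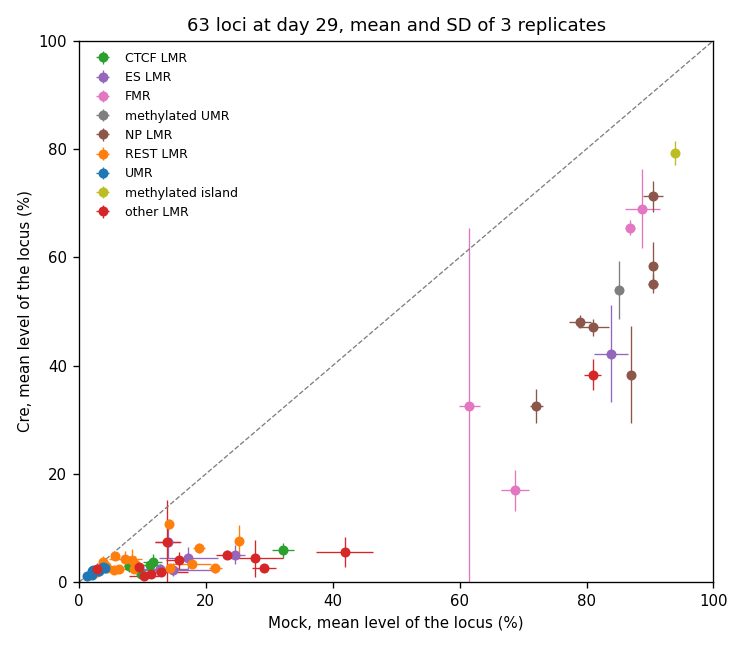
Mean level of each locus in the mock (horizontal axis, %) and after Cre (vertical axis, %), with bars for the SD of 3 replicates, coloured by region type, and equal levels on the dashed line. Loci under 30% in the mock lie between 1.08% and 10.7% after Cre, and the bar of the Arhgef15 locus (FMR) spans an SD of 32.9 points.

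The 15 FMR CpGs had 39.1%, 40.9% and 52.6% after Cre and 74.0%, 76.4% and 76.2% in the mock. Their retained share was 58.5%, and it ranged from 24.7% to 77.7% between the 4 loci. Relative to the mock, the locus in an intron of Atp2b2, a calcium pump gene, fell by more points than any other locus, from 67.1%, 71.2% and 67.9% to 16.8%, 20.7% and 13.3% (difference -51.8 points, log2 odds ratio -3.52 ± 0.23 SE, adjusted p = 7.19e-05). This ranking does not hold against day 0, where its mean was 55.8%, with 79.3% near Gm10295 and 82.3% in Zbtb20. A pair of loci in introns of Traf3, a signalling adaptor gene, retained 77.7% and 75.3%. At the second of these the Cre replicates had 63.8%, 66.3% and 66.2% and the mock replicates 86.2%, 86.7% and 87.7%.

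In an intron of Arhgef15, a guanine nucleotide exchange factor gene, Cre replicate 3 stood apart. The locus had 15.4%, 11.9% and 70.5% in Cre replicates 1, 2 and 3 and 59.8%, 61.7% and 63.1% in the mock. Replicate 3 is thus above all mock samples, and no CpG of the locus was called (locus adjusted p = 0.239). Without Cre replicate 3 the log2 odds ratio was -3.31 (adjusted p = 7.6e-05), and the mean difference over all FMR CpGs was -35.5 in place of -31.3 points. The lowest coverage of a CpG of this locus was 19685 reads.

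The methylated CpG island in AU022751, on the X chromosome, is the only locus of its type and retained 84.4%. Its Cre replicates had 79.2%, 81.6% and 77.2% and its mock replicates 94.3%, 93.6% and 93.9%, and 11 of its 12 CpGs were lower. The methylated UMR near Tuba3a, a tubulin gene, retained 63.4%, with 49.0%, 53.2% and 59.7% against 84.8%, 85.9% and 84.7%.

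Retained shares were compared between region types through the log2 ratio of the means of 2 types in each sample, for all 36 pairs, a test added after the data were seen. In 27 pairs the 3 Cre ratios and the 3 mock ratios did not overlap, each at p = 0.1 (exact permutation, two-sided). After adjustment over the 36 pairs this p was 0.133. The pairs reuse the same 9 types and are not independent, and UMR means were low in both groups (2.08% and 2.61%). NP over CTCF LMRs changed by 1.41 on the log2 scale, NP over ES LMRs by 0.50 (0.95 without the Zbtb20 locus) and the methylated island over NP LMRs by 0.51. By the same exact test NP LMRs and FMRs were not separated (0.03, p = 1), nor were ES and REST LMRs (0.03, p = 1) or CTCF and other constitutive LMRs (0.07, p = 0.4). These 3 results depend on single libraries. Each ratio changes sign without some Cre replicate, and each reaches p = 0.1 by the exact test without another, NP over FMRs without Cre replicate 3 (0.19), ES over REST LMRs without Cre replicate 2 (0.18) and CTCF over other LMRs without Cre replicate 1 (0.14).

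Among CpGs with at least 30% methylation in the mock, the retained share ranged from 3.89% to 95.3%, with a median of 50.9%. It was lowest at intermediate mock levels. The median was 12.7% for 19 CpGs between 30% and 50%, 23.4% for 20 CpGs between 50% and 70%, 44.0% for 8 between 70% and 80%, 55.0% for 36 between 80% and 90% and 80.7% for 34 at 90% or more. Across the 117 CpGs, mock level and retained share correlated with r = 0.78 (Spearman's rho 0.82). The correlation was r = 0.63 (rho 0.66) over the 39 NP LMR CpGs and r = 0.30 (rho 0.23) over the 44 CpGs with mock levels between 70% and 90%. The mock level enters both measures, and CpGs of a locus share reads. The number of CpGs within a window of 200 bases showed a correlation of r = 0.05 with the retained share, over the same CpGs.

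**Figure D3:**
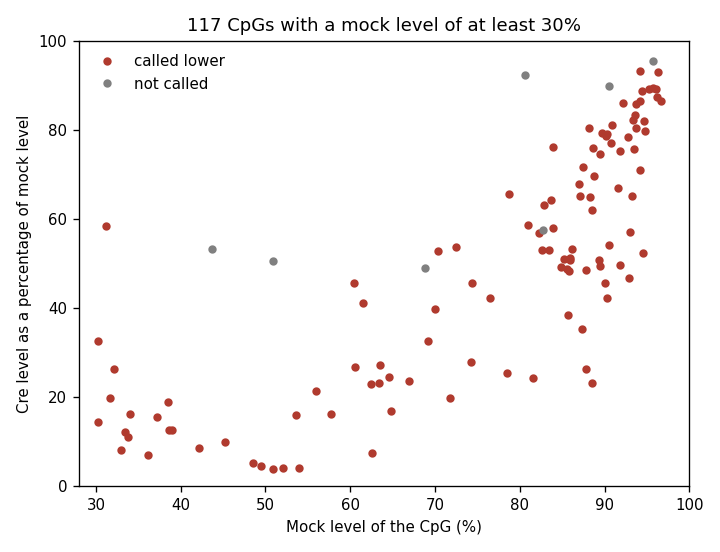
Retained share (Cre level as a percentage of the mock level, vertical axis) against the mock level (%, horizontal axis) for CpGs with a mock level of at least 30%, in red where lower after Cre and grey where not called. Of 117 CpGs 110 are red, and the medians go from 12.7% at mock levels of 30% to 50% to 80.7% at 90% or more.

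Among CpGs with a mock level of at least 30%, the 5 lowest retained shares all belong to CpGs at the start of the Col1a1 locus printed above. The lowest, at chr11:94734366-94734367, had 1.01%, 0.598% and 4.33% after Cre and 47.5%, 60.2% and 44.9% in the mock (log2 odds ratio -5.90 ± 1.03 SE). The others retained between 4.12% and 5.25%. Further along the locus the mock level was lower, between 5.90% and 18.2% at its last 7 CpGs, while the Cre mean was under 5% at each of its 14 CpGs.

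The 5 highest retained shares among the same CpGs, 89.8% to 95.3%, were at CpGs of Traf3 (2 CpGs), AU022751 (2 CpGs) and a REST LMR near 4931423N10Rik. The CpG at chrX:5659239-5659240 had 88.1%, 94.3% and 91.5% after Cre and 97.1%, 94.5% and 95.6% in the mock, and was not called (adjusted p = 0.0663). It passed with the beta-binomial test (0.00586), among CpGs with mean levels of 5% to 95% (0.0486) and without Cre replicate 2 (0.0198). The uncalled CpG at Traf3 passed with the beta-binomial test (6.54e-05), with the dispersion from all wild-type groups (0.0151) and without Cre replicate 2 (0.0221). That near 4931423N10Rik passed with the beta-binomial test (0.0230) and without Cre replicate 1 (0.0441). Of the 5, the CpGs at chr12:112492702-112492703 (Traf3) and chrX:5659221-5659222 (AU022751) were lower. The call at AU022751 (adjusted p = 0.0287) was lost with the replicate number as a block (0.0544), with day 0 in place of the mock (0.328) and in 5 of 6 fits with a replicate left out, all but that without Cre replicate 2 (0.0501 to 0.103). That at Traf3 (adjusted p = 0.004) was lost with day 0 in place of the mock (0.0642).

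The spread of retained shares within a locus varied. Of 17 loci with at least 4 CpGs and a mock mean of at least 20%, 11 had less than a 2-fold range between their CpGs, among them Akap6 (1.14-fold), AU022751 (1.34-fold) and Zbtb20 (1.35-fold). The other 6 ranged up to 16.2-fold, near 2700060E02Rik, where the range takes in CpGs with mock levels down to 2.64%. In the Prl5a1 locus, which has too few CpGs for this count, the 3 CpGs had 4.62% ± 1.09, 32.9% ± 4.77 and 77.5% ± 3.67 after Cre, and 62.5% ± 4.10, 85.7% ± 1.00 and 94.6% ± 1.22 in the mock (SD, n = 3 each). Their retained shares were 7.39%, 38.4% and 81.9%. In the Aff3 intron retained shares went from 86.0% to 23.6% across 5 CpGs, and near Gm10295 from 19.8% to 86.5% across 8. In Zbtb20 the 13 CpGs retained between 42.3% and 57.2%.

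**Figure D4:**
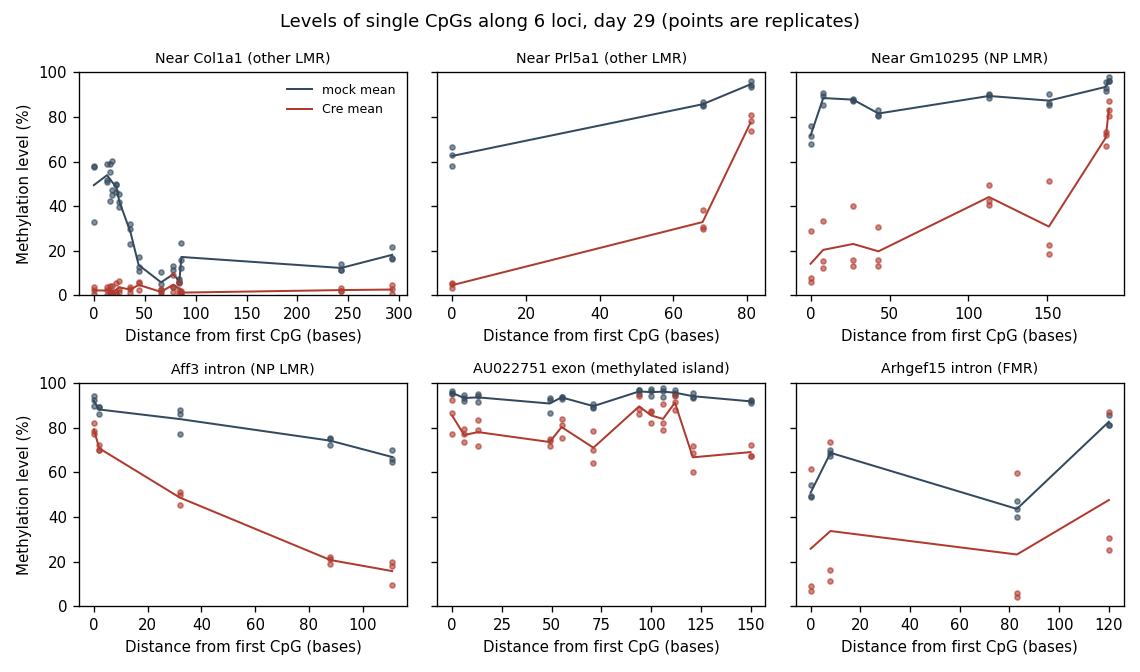
Methylation level (%) of each CpG against its distance in bases from the first CpG, at 6 loci, with points for replicates and lines for group means, mock in dark blue and Cre in red. Near Prl5a1 and Gm10295 the 2 lines are closest at the last CpG and in Aff3 at the first. In AU022751 the Cre line differs from the mock line by -4.46 to -27.4 points, and in Arhgef15 the points of Cre replicate 3 lie at or above the mock.

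Day 17 and the TTKO line, made from the same flox/flox line by mutating all 6 Tet alleles and grown from 1 clone, served as comparisons. Over 378 CpGs with a level in all of these samples, the wild-type mean was 26.6% ± 0.366 in non-transduced cells at day 0. It was 19.2% ± 0.889 after Cre and 28.8% ± 0.718 in the mock at day 17, and 15.0% ± 0.169 and 28.4% ± 0.523 at day 29. In TTKO cells at day 29 it was 24.9% ± 0.214 after Cre and 39.1% ± 0.728 in the mock (SD, n = 3 each). The retained share over these CpGs was 52.9% in wild-type cells at day 29, 66.7% at day 17 and 63.7% in TTKO cells. In points, the difference was -13.4 in wild-type and -14.2 in TTKO cells at day 29. The order of the lines thus depended on the measure. At 111 CpGs with at least 30% in the mock of both lines, the median retained share was 52.4% in wild-type and 81.7% in TTKO cells. Over all 384 CpGs the median interaction was 0.22 on the log2 scale, towards a larger fall in TTKO cells, and 256 CpGs were lower in TTKO cells against 196 in wild-type cells.

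The Cre effect at day 29 was larger than at day 17 at 10 of 386 CpGs (2.59%) and smaller at 0 by the interaction term, and 71 had an unadjusted p under 0.05. Of the 10, 7 lie in NP LMRs, among them 5 in the locus whose nearest gene is Irx4, a homeobox gene 190088 bases away. This count was 1 with limma on logit levels and 0 with the replicate number as a block. It was also 0 without mock replicate 2 or mock replicate 3, and it was 19 without Cre replicate 3 and 26 without Cre replicate 2.

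Between lines, the effect was larger in wild-type cells at 12 of 384 CpGs (3.12%) and larger in TTKO cells at 11 (2.86%). These counts were 62 and 96 with limma on levels and 0 and 0 with the replicate number as a block. They were lowest without mock replicate 3, at 3 and 1, and highest without Cre replicate 2, at 32 and 18. The first of these counts was also 7 without Cre replicate 1 and 19 without Cre replicate 3, and the second 2 without Cre replicate 1 and 4 without mock replicate 1. The first CpG of the Prl5a1 locus had 5.11%, 3.37% and 5.39% after Cre and 58.2%, 66.4% and 63.1% in the mock, and means of 69.4% and 88.6% in TTKO cells (interaction -3.27 ± 0.54 SE on the log2 scale, adjusted p = 0.012). In wild-type cells at day 0 its mean was 38.6% ± 10.4 (SD, n = 3), below that of the mock at day 29. A CpG in Zbtb20 at chr16:43609660-43609661 retained 45.6% in wild-type cells and had TTKO means of 96.6% and 97.5%. Near Irx4, the CpG at chr13:73207821-73207822 retained 65.2%, with TTKO means of 90.8% and 93.5%. In the other direction, the CpG near Slx1b at chr7:133836187-133836188 had 9.18%, 6.44% and 6.04% after Cre and 9.49%, 10.8% and 9.43% in the mock, with TTKO means of 0.528% and 8.67%. All 6 CpGs of the Slx1b locus that were called belong to this direction. The CpGs near Tram1 and Id3 with the next largest values had mock means under 4% in wild-type cells.

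**Figure D5:**
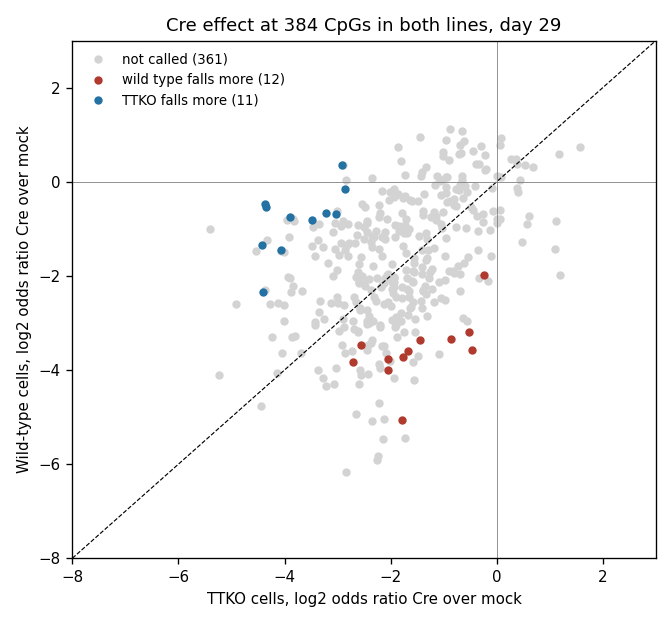
Effect of Cre at day 29 as a log2 odds ratio against the mock, for TTKO cells on the horizontal and wild-type cells on the vertical axis, 1 point per CpG, with equal effects on the dashed line. Red marks the 12 CpGs with a larger fall in wild-type cells and blue the 11 with a larger fall in TTKO cells.

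None of the loci carries, as the gene that holds it or lies nearest, a gene of the lists drawn up for pluripotency (22 genes), imprinting (19), germline (15) or neuronal function (21), with 0 loci for each list.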

How the data were processed

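Amplicon bisulfite sequencing was measured in wild-type ESCs 29 days after Cre or mock treatment (3 replicates each). The authors used Rbowtie (QuasR) for alignment to mm9 and AmpliconBiSeq for methylation calls, and set levels under 100 reads to missing. They deposited coverage, a count of reads per CpG, and the methylation level as a fraction, neither normalised. Coverage times level gave whole methylated reads for 100% of values (tolerance 1e-06). The deposited inferred rates and their confidence classes were not used.

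CpGs were tested with a quasi-binomial model on methylated and unmethylated counts, 0.5 added to each, with the dispersion moderated by limma 3.58.1 (squeezeVar; R 4.3.3) and not under 1, two-sided, at 0.05 after Benjamini-Hochberg adjustment. Loci used summed reads. Region type means used exact permutation tests, adjusted over 9 types (scipy 1.17.1). The model was run on simulated data with independent CpGs and an over-dispersion of 0.0055 in both groups. The simulation lacks the larger spread of the Cre replicates and the reads shared within a locus, so it cannot vouch for the calls. Genes came from GENCODE M1, on mm9.

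Per sample, 3485191 to 4671203 reads covered CpGs. PCR reads lack molecular identifiers, so precision was taken from replicates. Named loci were, per region type, the 2 with the largest fall and the 2 with the smallest change, in percentage points. Only loci with 3 or more tested CpGs were eligible, or with 2 or more in types with too few such loci. The 3 uncalled loci with the highest mock level were added. Named CpGs were the 5 lowest and 5 highest retained shares at mock levels of at least 30%, and the 3 largest called interactions in each direction. A few further loci were named after their values were seen (Col1a1, Aff3, Irx4). The members and lists were chosen with earlier results of these data known. Alternatives covered other tests, coverage minimums, day 0 as control, pairing and left-out replicates.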

Additional observations from a re-analysis of the deposited data

Results flagged for a closer look

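The Cre effect differed between wild-type and TTKO cells by the test of the interaction at 12 CpGs with a larger fall in wild-type cells and 11 with a larger fall in TTKO cells. Among the CpGs called, the 3 largest interactions with a larger fall in wild-type cells, on the log2 odds ratio scale, were -3.27 near Prl5a1, -3.13 in Zbtb20 and -2.68 near Irx4. The 3 largest called with a larger fall in TTKO cells were 3.28 near Id3, 3.81 near Tram1 and 3.90 at Slx1b. At the Id3, Tram1 and Slx1b CpGs the wild-type mock means were under 11%, and no Cre effect was called in wild-type cells. The mock means of the lines differed, 28.4% in wild-type and 39.1% in TTKO cells over 378 CpGs, and the part of this in the interactions was not tested. Between days, 10 CpGs had a larger Cre effect at day 29 than at day 17. With groups of 3 samples, no test for single outlying samples was made.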

How the results depend on the processing

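The mean difference kept its direction under every alternative run, between -14.4 and -11.7 points, and so did each region type. The count of lower CpGs stayed within 1.5 times 203 (179 to 194 with a replicate left out). Higher CpGs numbered 2 with the beta-binomial test, 1 with day 0 in place of mock, and 0 to 2 with a replicate left out. With the replicate number as a block, 190 CpGs and 45 loci were lower. The labels do not say that a number is shared between Cre and mock cultures, so the numbers were not taken as pairs. Same-numbered samples correlated at 0.02, 0.04 and 0.11 in their deviations, and samples with different numbers at -0.12 to 0.085. With 3 samples in each group these values cannot decide whether the numbers mark pairs. The exact sign-flip test of 3 paired differences cannot go below p = 0.25. Line interactions numbered 62 (wild type falls more) and 96 (TTKO falls more) with limma on levels and 0 and 0 with the block, and 3 to 32 and 1 to 18 with a replicate left out. Day interactions numbered 1 with limma on logit levels, 0 with the block and 0 to 26 with a replicate left out, and 0 to 1 in the other direction. Signs changed at loci and ratios near 0, none of them called. For loci (log2 odds ratio) these were Trak1, 0.14 with the block, and with limma Zfp82, -0.040, and Hdac2, -0.014. In the main model their log2 odds ratios were -0.072, 0.018 and 0.062. With a replicate left out the ranges were -0.37 to 0.087 at Otor, -0.39 to 0.30 at Trak1, -0.21 to 0.27 at Zfp82 and -0.15 to 0.19 at Hdac2. For ratios of region types they were -0.14 to 0.25 (methylated island over UMR), -0.0076 to 0.15 (methylated UMR over NP), -0.065 to 0.19 (NP over FMR), -0.084 to 0.18 (ES over REST) and -0.0083 to 0.14 (CTCF over other LMR). The causes were not tested.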
